A study of Homo sapiens with 6 samples.

Results

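Kinesins and centromere proteins move chromosomes in mitosis and carry cargo along microtubules between divisions. The genes described here are all those of the platform's annotation whose symbols begin with KIF followed by a digit or C, or with CENP followed by a letter, each read from its brightest probe set by mean. The rule found 60 of the 14884 named genes: 14 mitotic kinesins, 17 transport kinesins, 11 other kinesins, 17 CENP genes and KIF9-AS1, a noncoding antisense gene. Of the 60, 58 are annotated as protein coding. No member was left out for a low value.

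The arrays came from HK2, a line of human kidney proximal tubule epithelium immortalised with papillomavirus oncogenes and grown in DMEM with 10% serum. Cells were transduced with pLKO.1 lentivirus carrying an shRNA against GFP (shGFP, the control, 3 arrays) or against PGC-1alpha (shPGC-1alpha, 3 arrays), a transcriptional coactivator known for driving mitochondrial biogenesis. Puromycin selection followed in both groups, and RNA dates from day 5 after transduction, 24 hours after selection ended. Each group carried its own shRNA vector, so an effect of lowering PGC-1alpha and any other effect of that vector cannot be told apart. The labels call the samples biological replicates without saying that the cultures were transduced separately, and the p-values therefore measure the spread between these samples. PPARGC1A, the gene targeted, is not among the genes named here and was not analysed.

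A kinesin is a motor protein that uses ATP to walk along a microtubule or to take its end apart. Mitotic kinesins build the spindle, align chromosomes and organise the midzone where the cell divides, and most of their mRNAs accumulate in G2 and mitosis. Transport kinesins carry vesicles, mitochondria and ciliary cargo. CENP proteins mark the centromere: CENP-A replaces histone H3 in its nucleosomes, and the constitutive centromere-associated network (CCAN) reads those nucleosomes and links them to the kinetochore, the structure that grips spindle microtubules.

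The unit throughout is the deposited log2 RMA value, in which 1 unit is a doubling. The 6 arrays had medians of 5.00 to 5.04 over all probe sets, and arrays correlated at 0.988 to 0.992 within groups and 0.982 to 0.987 between groups. A gene was said to have risen or fallen in shPGC-1alpha cells when its limma p-value, adjusted by the Benjamini-Hochberg method over all 14884 genes, was under 0.05. By that rule 1426 genes rose (9.58%) and 1817 fell (12.2%), together 21.8%, and the median difference over all genes was -0.02. When each array was centred on the median of the named genes, which raised every difference by 0.05, the split turned to 1867 genes that rose and 1440 that fell. In 38.7% of genes the 2 sets of arrays had no overlap in value. Of the markers of other cell types, both measured fibroblast genes rose, LUM from 8.57 ± 0.03 to 9.33 ± 0.09 (SD, n = 3 and 3) and DCN from 3.80 ± 0.12 to 4.63 ± 0.04. The log2 of the fibroblast list's summed level, most of it LUM, was 8.59 to 8.64 on the shGFP arrays and 9.29 to 9.46 on the shPGC-1alpha arrays. Of the 3 leukocyte markers measured, CD68 rose by 0.34 and the summed level went from 11.14 to 11.20 up to 11.44 to 11.55. None of the 3 endothelial markers changed (5.85 to 5.99 and 5.74 to 5.89). Of 7 epithelial markers, 3 fell (KRT19 by 1.42, EPCAM by 0.73, KRT18 by 0.31) and PAX8 rose by 0.38. PAX8 was the largest part of their summed levels, 12.23 to 12.28 in shGFP and 12.24 to 12.32 in shPGC-1alpha. DPP4 fell by 0.27 (adjusted p 0.0255, lost without any 1 array other than shPGC-1alpha replicate 1, at 0.0569 to 0.0867) and was the proximal tubule marker that changed among 5 measured. The summed level of the 5, most of it DPP4, was 10.74 to 10.79 in shGFP and 10.46 to 10.58 in shPGC-1alpha. The proximal tubule receptors LRP2 (3.83 to 4.09 over the arrays) and CUBN (3.77 to 4.08) lay below 4.43, the 20th percentile of gene means, which served as a guide to dim values. Group means of LYZ and of the endothelial PECAM1 and KDR, and the shGFP means of DCN and CD14, also lay below it. The part of these markers in the results on kinesins and CENP genes was not tested.

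Among the 60 genes, 9 rose and 8 fell, 28.3% against the background of 21.8%, and their median difference was -0.02, as it was over all genes when rounded to 2 decimals. Values of the groups were without overlap for 35 of the 60 (58.3%, against 38.7% of all genes). The background holds more dim genes than the members do. Neither group mean was above the 4.43 guide for 2824 of the 14884 genes, and for 2 of the 60. With a filter on dim genes, 36.2% of members were called, against 30.7% of all genes. The shares without overlap, here and below, were not computed with that filter. The genes that rose were KIF2C, KIF23, KIF20B, KIF3B, KIF1B, KIFC3, CENPN, CENPL and CENPQ, and those that fell were KIF18A, KIF20A, KIF3C, KIF5A, KIF12, CENPK, CENPH and CENPV. Changes were modest: the largest was a 1.77-fold fall of CENPV. Both directions occurred among the mitotic kinesins, the transport kinesins and the CCAN genes. The plot of differences by class shows each gene with its error.

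**Figure D1:**
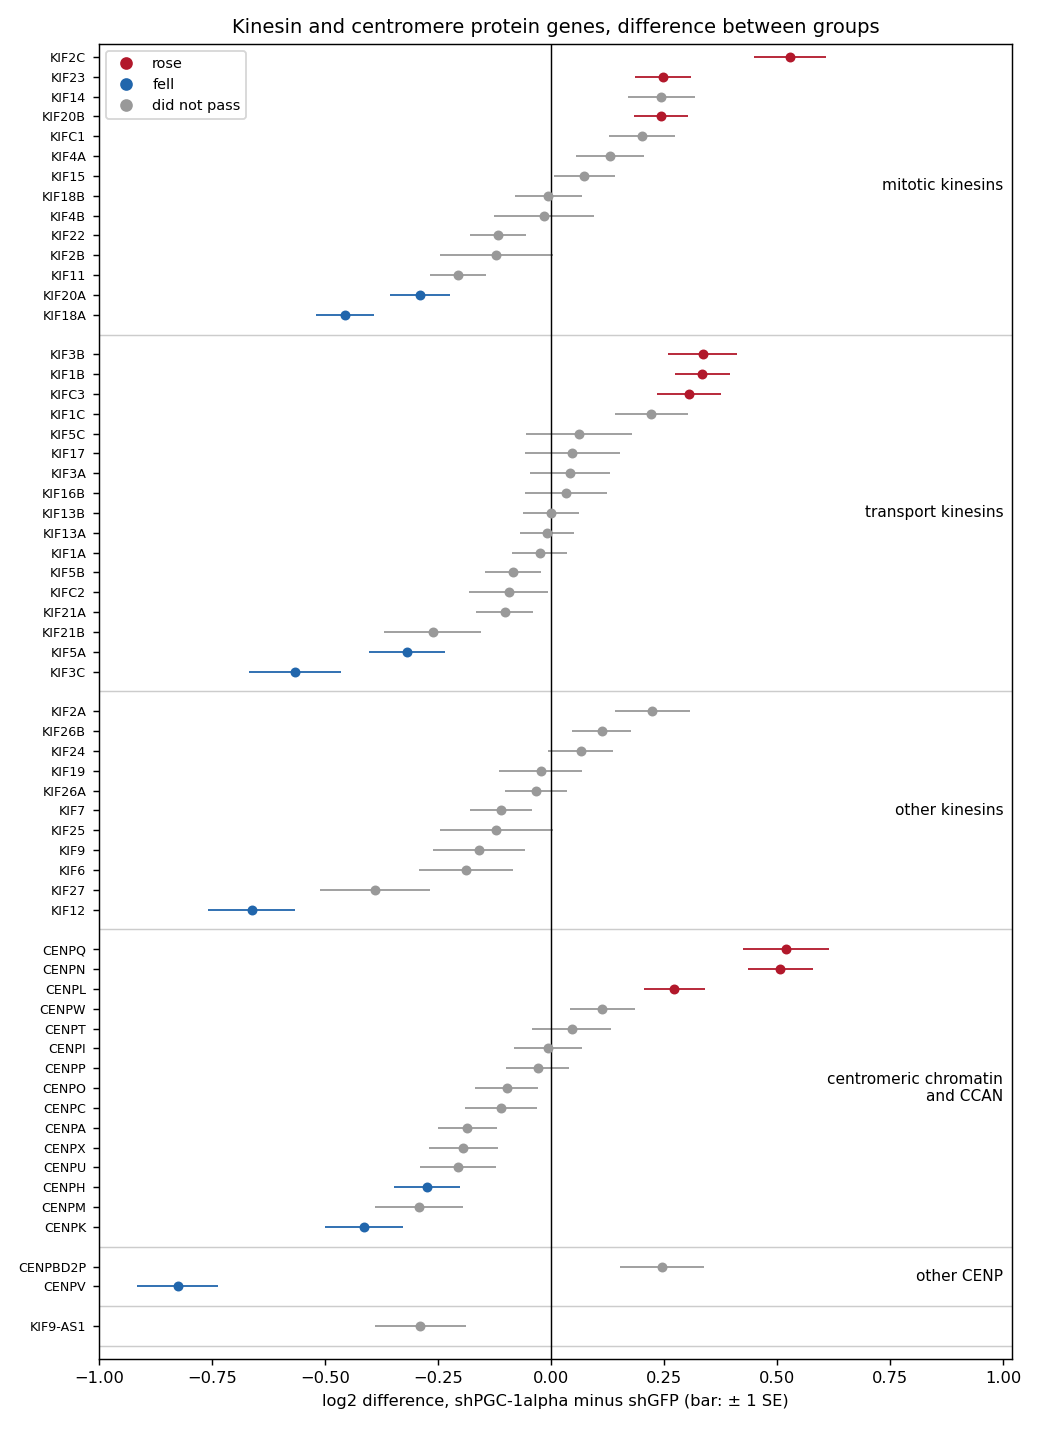
Log2 difference (shPGC-1alpha minus shGFP, horizontal axis) of each of the 60 genes, grouped by class, with bars of 1 SE from the limma fit; red genes rose, blue genes fell and grey genes did not pass an adjusted p of 0.05. CENPV at -0.83 and KIF12 at -0.66 lie farthest to the left, and KIF2C at 0.53 and CENPQ at 0.52 farthest to the right.

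Of the 14 mitotic kinesins, 3 rose (KIF2C, KIF23, KIF20B) and 2 fell (KIF18A, KIF20A), against 9.58% and 12.2% of all genes, and their median difference was 0.03. In 9 of the 14 (64.3%) the groups did not overlap, against 38.7% of all genes. Without 1 array at a time, 1 or 2 rose and 1 or 2 fell. Those fits called 15.6% to 17.3% of all genes. In bulk RNA, a change in the number of cells in mitosis and a change in mRNA per mitotic cell cannot be told apart.

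KIF2C (MCAK), which takes microtubule ends apart at the centromere and corrects faulty attachments, read 9.45, 9.66 and 9.65 on the shGFP arrays and 10.11, 10.17 and 10.07 on the shPGC-1alpha arrays. Every shPGC-1alpha array was above every shGFP array, and the mean went from 9.59 ± 0.12 to 10.12 ± 0.05 (SD, n = 3 and 3). The rise was 0.53 (SE 0.08), or 1.44-fold, with an adjusted p of 0.00359 by limma. KIF18A, a kinesin that dampens the movements of chromosomes aligned at the spindle equator, read 9.22, 9.31 and 9.27 in shGFP and 8.84, 8.84 and 8.75 in shPGC-1alpha. Its groups were also apart, in the opposite direction: the mean went from 9.27 ± 0.04 to 8.81 ± 0.05 (n = 3 and 3). KIF18A fell by 0.46 (SE 0.06), 1.37-fold, with an adjusted p of 0.00258. Both calls held without any 1 of the arrays.

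The other called mitotic kinesins act at the midzone and in cytokinesis, and they too were divided. KIF23 (MKLP1), the motor of the centralspindlin complex that bundles midzone microtubules, read 10.23, 10.32 and 10.32 in shGFP and 10.52, 10.55 and 10.55 in shPGC-1alpha. KIF20B, a kinesin needed to complete cytokinesis, read 9.95, 9.92 and 9.94 against 10.20, 10.20 and 10.14. KIF20A (MKLP2), which brings the chromosomal passenger complex to the midzone, read 9.56, 9.66 and 9.58 against 9.32, 9.37 and 9.25. In none of these genes did the groups overlap. KIF23 rose from 10.29 ± 0.05 to 10.54 ± 0.02 (n = 3 and 3), a difference of 0.25 (SE 0.06, adjusted p 0.0265). KIF20B rose from 9.94 ± 0.02 to 10.18 ± 0.03, by 0.24 (SE 0.06, adjusted p 0.0251). KIF20A fell from 9.60 ± 0.05 to 9.31 ± 0.06, a difference of -0.29 (SE 0.07, adjusted p 0.02). These calls sat near the threshold: KIF23 lost its call without any 1 of the 6 arrays (adjusted p 0.0618 to 0.0754), KIF20B without any 1 array other than shPGC-1alpha replicate 3 (0.0548 to 0.0879), and KIF20A on removal of replicate 2 or 3 of shGFP or of replicate 1 or 3 of shPGC-1alpha (0.0532 to 0.0773).

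The 9 mitotic kinesins that did not pass had differences from -0.21 to 0.24. KIF14, a partner of the cytokinetic kinase CIT, was 0.24 higher (adjusted p 0.053), and KIF11 (Eg5), the motor that pushes spindle poles apart, was 0.21 lower, at 10.70, 10.75 and 10.70 against 10.52, 10.56 and 10.46 (adjusted p 0.0559). For both genes the groups did not overlap although the test was not passed. KIFC1, the minus-end motor that focuses spindle poles, differed by 0.20 (adjusted p 0.0935), and KIF4A, the chromosome-arm motor, by 0.13 (adjusted p 0.28). KIF4B is a near-identical copy of KIF4A, so both values are uncertain. KIF2B, a depolymerase related to KIF2C, differed by -0.12 (adjusted p 0.562). On shPGC-1alpha replicate 3, 10 of the 14 mitotic kinesins (71.4%) had the lowest value of their group, against 38.5% of all genes. Among the CENP genes that array was lowest of its group for 10 of 17 (58.8%) and shPGC-1alpha replicate 1 highest for 11 of 17 (64.7%, against 38.4% of all genes). Among the transport kinesins replicate 3 was instead highest for 9 of 17 (52.9%, against 29.8%). Without that array, 2 mitotic kinesins rose and 1 fell, and the part of that array in the pattern was not otherwise tested.

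**Figure D2:**
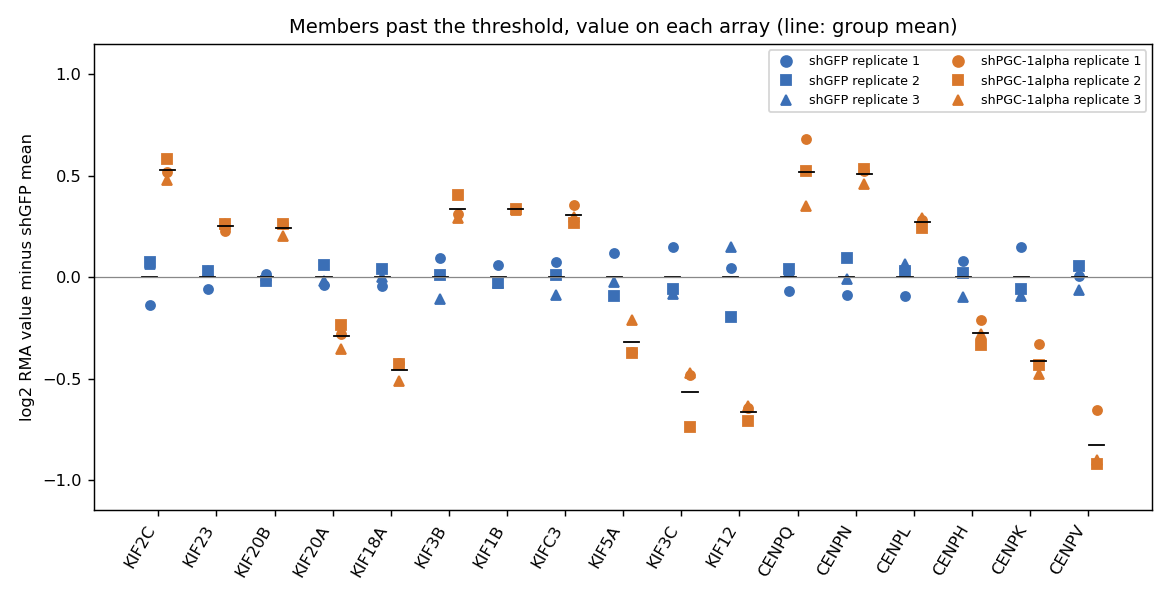
Value of the 17 members past the threshold on each array, as log2 RMA value minus the shGFP mean of the same gene (vertical axis); blue points are shGFP, orange points shPGC-1alpha, the symbol gives the replicate number and black lines the group means. In no gene do the orange points reach into the range of the blue ones, and replicate 3 of shPGC-1alpha (orange triangles) lies lowest for KIF2C, KIF20B, KIF20A and KIF18A.

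Promoters of mitotic genes often hold 2 short elements: the cell cycle homology region, TTTGAA, bound by the DREAM and MuvB complexes, and the CCAAT box, bound by NF-Y. Both were searched as exact letters on both strands in the 250 bases before the first listed start of each gene, in RefSeq promoter windows of GRCh38.p14. Neither motif contains the other. Windows were matched by Entrez gene identifier for 48 of the 60 members, 8 of which had several windows. The comparison set of 27305 genes was not limited to protein-coding genes, whereas 58 of the 60 members are protein coding. CCAAT stood in 11 of 14 mitotic kinesin windows (78.6%), 8 of 13 CENP windows (61.5%) and 3 of 12 transport kinesin windows (25.0%), against 33.0% of the windows of 27305 genes. TTTGAA stood in 5 of 14 (35.7%), 2 of 13 (15.4%) and 1 of 12 (8.33%), against 13.6%. Both motifs together were found in 4 of the 14 mitotic kinesins (28.6%, against 4.85%). CCAAT was found in 6 of the 7 windows of members that rose and in 4 of the 6 of members that fell. The following windows belong to called mitotic kinesins that hold both motifs, 1 that fell and 1 that rose, and are printed 5′ to 3′ in the direction of the gene with the motifs in capitals. That of KIF18A is chr11:28108157-28108406 on the minus strand, and that of KIF23 is chr15:69414099-69414348 on the plus strand.
KIF18A: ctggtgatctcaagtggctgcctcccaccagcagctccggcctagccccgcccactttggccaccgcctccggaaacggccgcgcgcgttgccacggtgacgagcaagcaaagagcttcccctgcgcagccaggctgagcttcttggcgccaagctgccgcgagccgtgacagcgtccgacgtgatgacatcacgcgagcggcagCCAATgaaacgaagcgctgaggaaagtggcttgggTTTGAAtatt
KIF23: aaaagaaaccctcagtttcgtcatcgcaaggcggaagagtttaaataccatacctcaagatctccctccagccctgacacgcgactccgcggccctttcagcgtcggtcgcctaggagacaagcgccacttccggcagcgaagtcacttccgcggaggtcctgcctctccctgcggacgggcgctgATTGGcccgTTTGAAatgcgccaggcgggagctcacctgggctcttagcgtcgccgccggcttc
In KIF18A, TTTGAA begins 10 bases and CCAAT 45 bases before the start. In KIF23, TTTGAA begins 55 bases before the start, and the CCAAT box lies 64 bases before it on the opposite strand, read here as ATTGG. The same letters thus stand in front of a gene that fell and a gene that rose, and a match describes the sequence without showing a bound site.

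Of the 17 transport kinesins, 3 rose (KIF3B, KIF1B, KIFC3) and 2 fell (KIF3C, KIF5A), with a median difference of -0.00 against -0.02 for all genes. Together 29.4% were called, and in 8 of the 17 (47.1%) the groups did not overlap. Without 1 array at a time, 1 to 3 rose and 1 or 2 fell, and 15.6% to 17.3% of all genes were called. With all arrays, the shares lay near those of all genes, 21.8% called and 38.7% without overlap. Among the called genes were KIF3B and KIF3C of kinesin-2, the heterotrimeric motor of intraflagellar transport and vesicle traffic. Its KIF3A chain pairs with either KIF3B or KIF3C, and the adaptor KIFAP3 joins the motor to cargo.

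KIF3B, the partner of KIF3A in the ciliary motor, read 8.07, 7.98 and 7.87 in shGFP and 8.28, 8.37 and 8.26 in shPGC-1alpha. KIF3C, the alternative partner, read 8.30, 8.10 and 8.07 against 7.67, 7.42 and 7.68. KIF3A, the shared chain, read 7.39, 7.39 and 7.18 against 7.45, 7.37 and 7.26. The groups were apart and opposed for KIF3B and KIF3C, while those of KIF3A overlapped. KIF3B rose from 7.97 ± 0.10 to 8.31 ± 0.06 (n = 3 and 3), by 0.34 (SE 0.08, 1.26-fold, adjusted p 0.0189). KIF3C fell from 8.16 ± 0.13 to 7.59 ± 0.15, by 0.57 (SE 0.10, 1.48-fold, adjusted p 0.00721), and KIF3A differed by 0.04 (adjusted p 0.791). KIF3B minus KIF3C within an array was -0.24, -0.11 and -0.21 in shGFP and 0.61, 0.95 and 0.58 in shPGC-1alpha, a shift of 0.90 that restates their separate differences as a sum. The KIF3C call held without any 1 array, and the KIF3B call was lost on removal of replicate 2 or 3 of shGFP or of replicate 2 of shPGC-1alpha (adjusted p 0.0576 to 0.0644).

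KIFAP3 read 8.12, 8.31 and 8.20 in shGFP and 7.80, 7.82 and 7.85 in shPGC-1alpha, with no overlap, and fell by 0.39 (adjusted p 0.00779). A dim further probe set of KIFAP3 went from 2.93 to 3.08, and over the mean of its probe sets the call was lost (adjusted p 0.362). Kinesin-2 carries the intraflagellar transport (IFT) trains that build and maintain the primary cilium. Of 21 genes listed for those trains, 19 were measured: 6 fell, none rose, and the median difference was -0.22, against 12.2% of all genes that fell and a median of -0.02. Without 1 array at a time, 5 to 8 fell, in fits that called 15.6% to 17.3% of all genes in either direction. IFT57, an anterograde train protein, read 7.08, 7.11 and 7.14 in shGFP and 6.30, 6.29 and 5.91 in shPGC-1alpha, so that every shPGC-1alpha array was below every shGFP array. IFT57 fell by 0.94 (SE 0.11, 1.92-fold, adjusted p 0.00127), the largest fall in the list. The retrograde train proteins TTC21B (from 8.42 ± 0.15 to 7.69 ± 0.03, n = 3 and 3, a fall of 0.73, adjusted p 0.00134) and WDR19 (from 8.01 ± 0.02 to 7.41 ± 0.03, a fall of 0.60, adjusted p 0.000619) fell as well. IFT88, a core anterograde train protein, fell by 0.53, from 6.20 ± 0.04 to 5.67 ± 0.12 (adjusted p 0.00344). IFT80 fell by 0.41 (adjusted p 0.0147, and 0.0521 without shGFP replicate 3). WDR35 fell by 0.36 (adjusted p 0.039), a call lost on removal of replicate 1 or 2 of shGFP or of replicate 2 or 3 of shPGC-1alpha (0.11 to 0.117) and under centring (0.0651). The list's genes that did not pass ranged from -0.46 to 0.07.

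**Figure D3:**
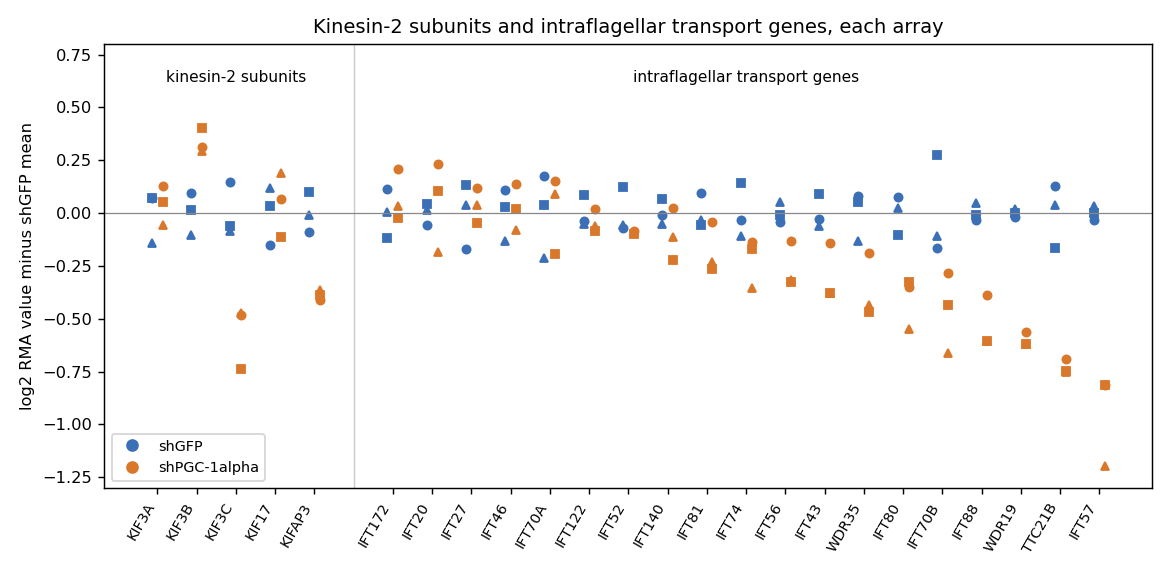
Log2 RMA value minus the shGFP mean of the same gene (vertical axis) for the kinesin-2 subunits with KIF17 and KIFAP3 (left) and the 19 intraflagellar transport genes measured (right); blue points are shGFP arrays, orange points shPGC-1alpha arrays, with circles, squares and triangles for replicates 1, 2 and 3. KIF3B lies above its control values and KIF3C and KIFAP3 below them, and the orange points of IFT88, WDR19, TTC21B and IFT57 lie below all control points.

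KIF1B, a motor for mitochondria and synaptic vesicle precursors, read 7.78, 7.69 and 7.69 in shGFP and 8.05, 8.06 and 8.05 in shPGC-1alpha. The groups did not overlap, and KIF1B rose from 7.72 ± 0.05 to 8.05 ± 0.00 (n = 3 and 3), by 0.33 (SE 0.06, 1.26-fold, adjusted p 0.00785), with or without any 1 array. A dimmer KIF1B probe set went from 4.87 ± 0.12 to 4.83 ± 0.29, and over the mean of both the difference was 0.15 (adjusted p 0.325). KIFC3, a minus-end motor of apical transport and epithelial junctions, read 7.06, 6.99 and 6.89 against 7.34, 7.25 and 7.28. Its groups did not overlap and the mean rose from 6.98 ± 0.08 to 7.29 ± 0.05, by 0.31 (SE 0.07, adjusted p 0.0196). KIF5A, a heavy chain of conventional kinesin best known from neurons, read 5.58, 5.37 and 5.44 against 5.09, 5.09 and 5.25. It fell without overlap from 5.46 ± 0.11 to 5.14 ± 0.09, by 0.32 (SE 0.08, adjusted p 0.0338). KIFC3 lost its call on removal of replicate 2 or 3 of shGFP or of replicate 1 or 3 of shPGC-1alpha (adjusted p 0.0511 to 0.071), and KIF5A on removal of replicate 1 or 3 of shGFP or of replicate 1 or 2 of shPGC-1alpha (0.0801 to 0.1) and under centring (0.0706).

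The broadly expressed conventional heavy chain KIF5B differed by -0.08 (adjusted p 0.406), and KIF5C, the other neuronal form, went from 4.42 to 4.48 without passing. The 12 uncalled transport kinesins ranged from -0.26 to 0.22. At the ends of that range stood KIF21B, a motor that also steadies microtubule ends (adjusted p 0.136), and KIF1C, a vesicle motor (adjusted p 0.0985). Of 12 measured genes for light chains and cargo adaptors, out of 18 listed, 3 fell and none rose (25.0% called, near the 21.8% of all genes), with a median of -0.17. Beside KIFAP3 these were MAPK8IP3 (JIP3), an adaptor between kinesin-1 and vesicles, at -0.34 (adjusted p 0.017), and RHOT2 (Miro2), the mitochondrial anchor, at -0.30 (adjusted p 0.0376). MAPK8IP3 lost its call on removal of replicate 3 of shGFP or of replicate 1 or 2 of shPGC-1alpha (0.0546 to 0.0634), and RHOT2 without any 1 array other than shGFP replicate 1 (0.0521 to 0.114) and under centring (0.067).

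Dynein runs the opposite way along the microtubule, with dynactin and cargo adaptors as its cofactors. No chain of the motor was analysed here: the 11 genes measured of 23 listed were dynactin subunits, adaptors and regulators. Of these, 4 rose and 1 fell, against 9.58% and 12.2% of all genes, with a median of 0.08. The cargo adaptors BICD1 and BICD2 moved apart. BICD1 fell by 0.52, from 7.99, 7.80 and 7.83 to 7.36, 7.32 and 7.38 (adjusted p 0.00272). BICD2 rose by 0.38, from 7.73, 7.74 and 7.78 to 8.18, 8.07 and 8.14 (adjusted p 0.00505). In both the groups did not overlap. The dynactin subunit DCTN6 rose by 0.36 (adjusted p 0.00671) and NDEL1, a dynein regulator, by 0.32 (adjusted p 0.0194, lost on removal of replicate 3 of shGFP or of replicate 1 or 2 of shPGC-1alpha, at 0.0503 to 0.0712). DCTN4, another dynactin subunit, rose by 0.25 (adjusted p 0.0219), a call lost without any 1 of the 6 arrays (0.0525 to 0.0727).

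Of the 11 kinesins outside these classes, 1 fell and none rose, with a median of -0.11. At 9.09% called, a share that rests on 1 gene, the class lay below the 21.8% of all genes. By the other measure it lay above them: in 5 of the 11 (45.45%) the groups did not overlap, against 38.7% of all genes. KIF12, a kinesin known from kidney and liver epithelium, read 7.09, 6.85 and 7.20 in shGFP and 6.40, 6.34 and 6.41 in shPGC-1alpha. The groups were apart by more than the whole control range, and KIF12 fell from 7.05 ± 0.18 to 6.38 ± 0.04 (n = 3 and 3). Its fall of 0.66 (SE 0.10, 1.58-fold, adjusted p 0.00311) was the largest among the kinesins and held without any 1 array. KIF27, a relative of the Hedgehog regulator KIF7, was 0.39 lower without passing (adjusted p 0.0598), and its dimmer probe sets differed by 0.11 and 0.31. KIF2A, a microtubule depolymerase related to KIF2C, was 0.22 higher (adjusted p 0.101). KIF6 (3.81 to 3.62) and KIF9 (4.32 to 4.16), motors of motile cilia, lay below the 4.43 guide and did not pass. KIF9-AS1 was 0.29 lower (adjusted p 0.0847), and it overlaps KIF9 on the opposite strand, so their values are uncertain.

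Of 28 CENP genes listed, 17 were measured: 3 rose and 3 fell, against 9.58% and 12.2% of all genes, and the median was -0.10, against -0.02. In 12 of the 17 (70.6%) the groups did not overlap, against 38.7%. CENPB, CENPS, CENPE, CENPF and CENPJ were among those not analysed here. CENPA, the centromeric histone itself, read 8.82, 8.79 and 8.85 in shGFP and 8.68, 8.66 and 8.56 in shPGC-1alpha, lower on every array, but its difference of -0.18 did not pass (adjusted p 0.0891). CENPC, which binds the CENP-A nucleosome and anchors the network, differed by -0.11 (adjusted p 0.397).

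The CENP-L/N pair, in which CENP-N recognises the CENP-A nucleosome, was the subcomplex whose measured genes both rose, where 9.58% of all genes rose. CENPN read 9.26, 9.44 and 9.34 in shGFP and 9.88, 9.88 and 9.81 in shPGC-1alpha. CENPL read 7.25, 7.37 and 7.41 against 7.62, 7.59 and 7.63. Neither gene's groups overlapped. CENPN rose from 9.35 ± 0.09 to 9.86 ± 0.04 (n = 3 and 3), by 0.51 (SE 0.07, 1.42-fold, adjusted p 0.00267), and kept its call without any 1 array. CENPL rose from 7.34 ± 0.08 to 7.61 ± 0.03, by 0.27 (SE 0.07, 1.21-fold, adjusted p 0.0273), a call lost without any 1 array other than shGFP replicate 3 (0.0606 to 0.0739).

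Of the 4 genes of the CENP-H/I/K/M subcomplex, another part of the network, 2 fell and none rose, against 12.2% and 9.58% of all genes. Their median was -0.28. CENPK read 8.09, 7.88 and 7.84 in shGFP and 7.61, 7.50 and 7.46 in shPGC-1alpha. CENPH read 7.19, 7.14 and 7.02 against 6.90, 6.78 and 6.84. The shPGC-1alpha arrays were below the shGFP arrays for both. CENPK fell from 7.94 ± 0.13 to 7.52 ± 0.07 (n = 3 and 3), by 0.41 (SE 0.09, 1.33-fold, adjusted p 0.0135), without dependence on any 1 array. CENPH fell from 7.12 ± 0.09 to 6.84 ± 0.06, by 0.27 (SE 0.07, adjusted p 0.0358), a call lost without any 1 array other than shGFP replicate 3 (0.0549 to 0.108) and under centring (0.0751). CENPM, a small GTPase-like subunit, was 0.29 lower without passing (adjusted p 0.0758), and CENPI, the remaining subunit, differed by -0.01.

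In the CENP-O/P/Q/U subcomplex, CENPQ, which contacts microtubules, read 7.59, 7.70 and 7.68 in shGFP and 8.34, 8.18 and 8.01 in shPGC-1alpha. The groups did not overlap, and CENPQ rose from 7.66 ± 0.06 to 8.18 ± 0.17 (n = 3 and 3), by 0.52 (SE 0.09, 1.43-fold, adjusted p 0.00761), with or without any 1 array. Its partners did not pass: CENPU, which docks the kinase PLK1, differed by -0.21 (adjusted p 0.132), CENPO by -0.10 (adjusted p 0.386) and CENPP by -0.03. In the histone-fold subcomplex, CENPT, CENPW and CENPX differed by 0.05, 0.11 and -0.19, and none passed.

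**Figure D4:**
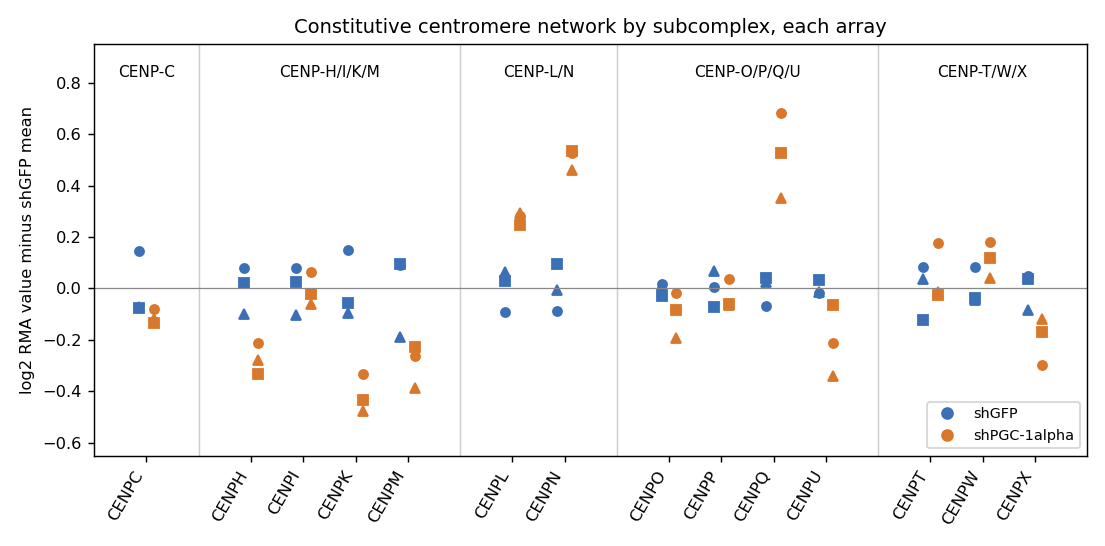
Log2 RMA value minus the shGFP mean of the same gene (vertical axis) for the genes of the constitutive centromere network, by subcomplex; blue points are shGFP arrays and orange points shPGC-1alpha arrays, with circles, squares and triangles for replicates 1, 2 and 3. CENPL, CENPN and CENPQ lie above all their control points and CENPH and CENPK below them, and genes such as CENPI, CENPP and CENPT overlap.

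CENPV had the largest difference of all 60 genes. Its protein is no subunit of the network but binds microtubules and helps place the chromosomal passenger complex. CENPV read 7.42, 7.47 and 7.35 in shGFP and 6.76, 6.50 and 6.52 in shPGC-1alpha, a gap wider than the range within either group. It fell from 7.42 ± 0.06 to 6.59 ± 0.15 (n = 3 and 3), by 0.83 (SE 0.09, 1.77-fold, adjusted p 0.000895), with or without any 1 array. CENPBD2P, a pseudogene, was 0.25 higher without passing (adjusted p 0.11). In RefSeq, CENPN overlaps the antisense gene CENPN-AS1, and whether its probes tell the strands apart is not given in the sources used here.

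Partners of these genes in mitosis were also divided. Of 7 CENP-A loading genes measured of 8 listed, 2 fell, none rose (28.6% called, against 21.8% of all genes) and the median was -0.14. RBBP4, a histone chaperone, fell by 0.39 (adjusted p 0.00533), and NASP, a histone H3 chaperone, fell by 0.35 (adjusted p 0.0195, lost on removal of replicate 1 or 2 of shGFP or of replicate 1 or 3 of shPGC-1alpha, at 0.0546 to 0.0622). Both also serve chromatin outside the centromere. The 5 loading genes that did not pass ranged from -0.18 to 0.03. Among them HJURP differed by 0.02 (adjusted p 0.864), OIP5 by 0.03 (adjusted p 0.81) and MIS18A by -0.18 (adjusted p 0.325). Of the 7 passenger complex and shugoshin genes, which correct attachments beside KIF2C, 2 rose (28.6%, against 9.58% of all genes that rose) and the median was 0.13. CDCA8 (borealin) rose by 0.46, from 9.42, 9.34 and 9.27 to 9.76, 9.93 and 9.73 (adjusted p 0.00622), and BIRC5 (survivin) rose by 0.40, from 8.21, 8.34 and 8.24 to 8.67, 8.71 and 8.60 (adjusted p 0.00611). Their groups did not overlap. The 5 passenger complex and shugoshin genes that did not pass ranged from -0.04 to 0.22. AURKB and INCENP, of the passenger complex, differed by 0.05 (adjusted p 0.644) and -0.04 (adjusted p 0.698).

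In the outer kinetochore, 1 of 6 measured genes rose (16.7%, against 9.58% of all genes; 13 were listed; median 0.17): SKA2, which keeps kinetochores on shrinking microtubules, by 0.37 (adjusted p 0.0322, lost without any 1 array other than shPGC-1alpha replicate 3, at 0.0673 to 0.0977). Of 10 spindle checkpoint genes measured of 12 listed, 1 rose and 2 fell (30.0% called, against 21.8% of all genes), with a median of 0.03. KNTC1 (ROD), which recruits checkpoint proteins and dynein to kinetochores, fell by 0.70, from 9.60, 9.52 and 9.46 to 8.84, 8.83 and 8.80 (adjusted p 0.000483), with no overlap. BUB3, a checkpoint subunit, fell by 0.45 (adjusted p 0.00526). The checkpoint kinase TTK (MPS1) rose by 0.27 (adjusted p 0.0438, lost without any 1 array other than shPGC-1alpha replicate 3, at 0.0741 to 0.125).

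Of 11 measured spindle and midzone partners of 16 listed, 3 rose and 1 fell, against 9.58% and 12.2% of all genes, with a median of 0.08. NUMA1, which anchors dynein at the spindle poles, fell by 0.34 (adjusted p 0.00809). The cytokinesis genes ECT2 and CEP55 rose by 0.26 and 0.27 and the spindle adaptor KNSTRN by 0.33 (adjusted p 0.0228, 0.0439 and 0.0328). Each of these rises was lost without any 1 array other than shPGC-1alpha replicate 3, at 0.0567 to 0.0782 for ECT2, 0.104 to 0.121 for CEP55 and 0.0671 to 0.0998 for KNSTRN.

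Of 16 genes of mitotic entry and exit measured of 18 listed, 4 rose and 1 fell, against 9.58% and 12.2% of all genes, with a median of 0.17. LIN54, the subunit by which MuvB binds the cell cycle homology region, rose by 0.49, from 7.74, 7.90 and 7.85 to 8.32, 8.35 and 8.28 (adjusted p 0.00282). WEE1, which delays mitotic entry by phosphorylating CDK1, rose by 0.37 (adjusted p 0.00575), and CCNA2 (cyclin A2) by 0.34 (adjusted p 0.0108). ESPL1 (separase), the protease that releases sister chromatids, fell by 0.42 (adjusted p 0.00538). The proliferation gene MKI67 read 11.23, 11.17 and 11.17 in shGFP and 11.20, 11.20 and 11.18 in shPGC-1alpha, overlapping groups with a difference of 0.00. TOP2A, which untangles chromosomes before they separate, was 0.18 higher without passing (adjusted p 0.0667).

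**Figure D5:**
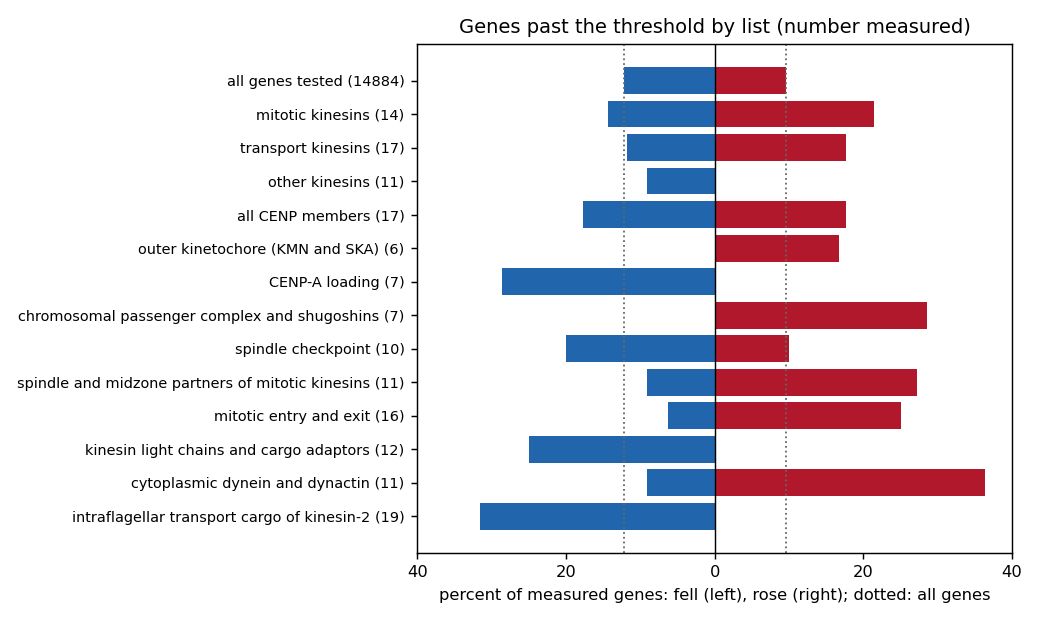
Percent of measured genes that fell (blue, left) and rose (red, right) in shPGC-1alpha cells, in the member classes and the lists of related genes, with the number measured in parentheses; dotted lines mark all genes, 12.2% and 9.58%. Bars stand on the left alone for the other kinesins (1 gene) and for the intraflagellar transport, light chain and CENP-A loading lists. They stand on the right alone for the passenger complex and outer kinetochore (1 gene) lists.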

How the data were processed

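Total RNA of 6 cultures of HK2 cells, 3 with shGFP and 3 with shPGC-1alpha, was hybridised to 6 Affymetrix arrays. The authors deposited log2 expression values of 53617 probe sets. The submitters' processing notes name RMA, which corrects background, equalises the arrays' distributions and summarises probes, and Affymetrix Expression Console, with versions not given in the sources used here. RMA would reduce a change shared by most transcripts. The values carry no counts or detection calls, so the number of arrays limits the precision. Scan dates and array batches were not analysed here.

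The platform annotation gave 16098 probe sets 1 gene symbol and 37519 none, which leaves 14884 genes, 779 of them with more than 1 probe set. For those the probe set with the highest mean stood for the gene. A plain fit of the groups in limma 3.58.1 (R 4.3.3; lmFit, eBayes, all genes, no block) gave the p-values, which were adjusted by the Benjamini-Hochberg method and read at 0.05. The same script was tested on simulated data. An exact permutation test of 3 arrays against 3 has 0.1 as its smallest p. Differences are shPGC-1alpha minus shGFP. A difference within an array between 2 genes is given as a shift between groups, since levels of different probe sets are not comparable.

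The members and gene lists were chosen with earlier results of these data known. Named are every called member, the 4 uncalled ones with the largest differences and the brightest and dimmest in each class, up to 4 called genes per related list, and MKI67 and TOP2A. CENPC, CENPI, CENPO, CENPP, CENPT, CENPW, KIF3A, DCTN4, IFT80, WDR35 and the markers KRT19, EPCAM, KRT18, PAX8, LUM, DCN, DPP4 and CD68 were named after their values were seen. So were HJURP, OIP5, MIS18A, AURKB and INCENP. Promoter windows came from RefSeq (GRCh38.p14). Alternatives left out single arrays, blocked on the replicate number or used a filter on dim genes, the mean of a gene's probe sets, adjustment over all probe sets, centring, another variance model and array weights.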

Additional observations from a re-analysis of the deposited data

How the results depend on the processing

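Precision rested on 3 arrays a group and a median SE of 0.09 over all genes, and signal over background could not be read from RMA values. Of the 17 called members, 9 kept their call without any 1 array. Of all 55 genes named as called, 34 did, and none changed direction under any alternative run. Without 1 array at a time, 4 to 6 members rose and 5 to 7 fell. Members called were 16.7% to 21.7%, against 15.6% to 17.3% of all genes, and 16.7% against 17.3% without shPGC-1alpha replicate 1. The mitotic kinesin median ranged from 0.0271 to 0.0714 in those fits. The replicate numbers paired the samples weakly if at all. Correlations of deviations were 0.117, 0.0874 and 0.023 for the same number and -0.123 to 0.0573 for unlike numbers. With the replicate block 6 members rose and 7 fell, among 1221 and 1552 genes (21.7% of members against 18.6% of all genes). CENPH, CENPL, KIF20B, KIF23, KIF5A, TTK, KNSTRN, CEP55, RHOT2, DPP4 and DCTN4 were then short of the threshold (adjusted p 0.05 to 0.0833) and CENPM past it (0.046). Adjusting over all probe sets left 767 genes that rose and 970 that fell, with 4 and 4 members (13.3% of members against 11.7% of all genes). Of the 55 named calls, 24 then missed the threshold. The members among them were CENPH, CENPK, CENPL, KIF20A, KIF20B, KIF23, KIF3B, KIF5A and KIFC3 (adjusted p 0.0588 to 0.128). The filter on dim genes gave 10 and 11 members, and 1602 and 2059 genes (36.2% of members against 30.7% of all genes). The trended robust variance gave 14 and 14 members, and 1763 and 2207 genes (46.7% of members against 26.7% of all genes). Centring on array medians gave 12 and 6 members (30% of members against 22.2% of all genes) and a mitotic kinesin median of 0.0865. Uncalled genes near 0 changed sign: without 1 array, KIF5C ranged from -0.059 to 0.157, KIF3A from -0.0287 to 0.092, CENPI from -0.0601 to 0.0324, CENPP from -0.0665 to 0.00446, CENPT from -0.0191 to 0.0881 and MKI67 from -0.00593 to 0.0255. KIF27 gave 0.00931 over the mean of its probe sets. With centring CENPI was 0.0449 and CENPP 0.023, and with array weights CENPI was 0.00684. The cause of these shifts was not tested.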
